A study of Mus musculus with 2 samples.

Results

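The genes described here encode the enzymes that make, recycle and use glutathione, the peroxiredoxin and thioredoxin reductase systems, superoxide dismutases, catalase, and a group of quinone, carbonyl and heme enzymes, together with the transcription factor NRF2 and its inhibitor KEAP1. They were taken by symbol: every probe set whose only gene symbol in the array annotation begins with Gst (alpha, kappa, mu, omega, pi, theta or zeta), Gpx, Prdx, Txnrd, Mgst, Sod, Nqo, Hmox, Cbr or Ggt and a number, or is Gclc, Gclm, Gss, Gsr, Srxn1, Nfe2l2, Keap1 or Cat. This gave 102 probe sets of 59 genes, out of 34945 probe sets of 18193 genes. A further 6 probe sets that carry such a symbol beside other symbols were not used, among them those of Prdx1.

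Liver RNA came from athymic BALB/c nude mice, in which mature T cells are few. There was 1 array at day 0, titled as the control, and 1 at day 3, and 70% of the liver had been cut out in a partial hepatectomy. Both samples carry the same labels for strain, tissue and operation. The labels give neither the age nor the sex of the animals, nor say whether a sample was 1 animal or a pool, and no sham-operated group was analysed here. With 1 array per day no test between the days was possible, no value below has a standard error, and day, surgery and animal cannot be told apart.

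Glutathione is a small thiol made from glutamate, cysteine and glycine, and liver is its main source for the body. Glutathione S-transferases (GSTs) attach it to reactive molecules, glutathione peroxidases and peroxiredoxins use thiols to remove peroxides, and reductases that draw on NADPH restore the oxidised thiols. NRF2, encoded by Nfe2l2, is held low by KEAP1 in unstressed cells. When electrophiles or oxidants modify KEAP1, NRF2 accumulates and binds antioxidant response elements near many of these genes.

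The short core of that element is spelled TGACNNNGC or TGAGNNNGC, which are mutually exclusive at any position, and both were searched on both strands in the 250 bases before each RefSeq gene start (GRCm38.p6). Promoters of 52 of the 59 genes were found by symbol. Of these 52 genes, 16 (30.8%) held either spelling, against 25.7% of the 27025 genes in the promoter table. By window, the shares were 24.6% of 69 and 23.0% of 32851. The windows printed here are those of Srxn1, Gstp3 and Nfe2l2, whose signal was at least 2-fold higher at day 3 and which held a match, and those of Gclm and Gstp1, which held a match and were under 2-fold. Each reads 5′ to 3′ on the gene's strand and ends at the base before the start, and capitals mark the matches. A match on the other strand appears as its reverse complement, such as GCCGACTCA in Srxn1 and GCACCGTCA in Gclm.
Srxn1 (chr2:152105274-152105523, + strand): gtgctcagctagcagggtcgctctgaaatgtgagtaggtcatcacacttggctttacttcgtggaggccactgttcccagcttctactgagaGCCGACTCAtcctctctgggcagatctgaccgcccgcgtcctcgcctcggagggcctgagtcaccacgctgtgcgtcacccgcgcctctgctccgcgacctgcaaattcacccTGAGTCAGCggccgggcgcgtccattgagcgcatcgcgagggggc
Gstp3 (chr19:4059448-4059697, - strand): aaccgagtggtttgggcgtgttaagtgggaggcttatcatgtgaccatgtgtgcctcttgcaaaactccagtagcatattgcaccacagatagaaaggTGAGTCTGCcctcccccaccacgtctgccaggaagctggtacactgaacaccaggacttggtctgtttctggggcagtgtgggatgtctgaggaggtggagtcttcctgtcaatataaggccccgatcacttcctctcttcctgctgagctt
Nfe2l2 (chr2:75704664-75704913, - strand): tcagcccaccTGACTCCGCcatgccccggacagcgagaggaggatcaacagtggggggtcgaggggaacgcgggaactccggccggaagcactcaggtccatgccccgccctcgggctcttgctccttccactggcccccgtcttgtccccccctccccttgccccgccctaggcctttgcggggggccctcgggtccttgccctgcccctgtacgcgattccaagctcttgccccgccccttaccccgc
Gclm (chr3:122245307-122245556, + strand): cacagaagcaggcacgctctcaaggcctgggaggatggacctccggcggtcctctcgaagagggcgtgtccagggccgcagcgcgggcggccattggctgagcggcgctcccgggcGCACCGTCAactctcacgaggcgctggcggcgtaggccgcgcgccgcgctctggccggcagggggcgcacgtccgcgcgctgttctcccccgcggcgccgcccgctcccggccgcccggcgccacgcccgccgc
Gstp1 (chr19:4037913-4038162, - strand): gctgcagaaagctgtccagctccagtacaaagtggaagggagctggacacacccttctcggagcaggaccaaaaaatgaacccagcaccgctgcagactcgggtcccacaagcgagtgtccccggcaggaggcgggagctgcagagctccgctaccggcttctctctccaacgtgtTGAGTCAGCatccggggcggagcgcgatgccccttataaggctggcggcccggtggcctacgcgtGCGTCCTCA

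Srxn1 and Gstp1 both held TGAGTCAGC, ending 37 and 66 bases before the start. Gstp3 held TGAGTCTGC, ending 144 bases before it. The match in Nfe2l2 was TGACTCCGC and that in Gclm, on the other strand, TGACGGTGC. The core was present in 3 of 9 genes at least 2-fold higher at day 3. It was also present in 2 of 6 genes at least 2-fold lower and 10 of 30 under 2-fold. With so few genes, these like shares cannot show whether the core and the values go together. Hmox1 was among the genes with no promoter found. A match describes letters in this window and is not evidence of binding, and a missing match does not exclude an element outside the window.

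At day 3 the glutathione peroxidase genes Gpx3, Gpx7 and Gpx8, the transferase genes Gstp3 and Gstm2, the heme oxygenase gene Hmox1, and Cbr3, Srxn1, Gss and Nfe2l2 exceeded their day 0 signal by 2-fold or more. Gstk1, Gstm6, Gsto1, Gstz1, Txnrd2 and Txnrd3 had at least 2-fold lower signal. The other 36 genes with a ratio were under 2-fold, among them Gclc and Gclm of glutathione synthesis, Txnrd1, catalase, Prdx2, Prdx3 and Prdx4, and the superoxide dismutases.

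Signals are MAS5 probe set intensities on a linear scale, which can be compared between the days for 1 probe set but not between genes. Signals under a common floor of 68.3, the higher of both array medians, were set to the floor for ratios, and a gene was represented by its probe set of highest mean log2 signal, called its main probe set. Both signals exceeded the floor for 49 of the 59 genes, only that of day 3 did for 3 (Cbr3, Gpx3 and Gpx8), and neither did for 7 (Cbr2, Ggt7, Gpx5, Gpx6, Gsto2, Gstt4 and Mgst2), which is not a test of detection. The threshold for calling a gene higher or lower at day 3 was 2-fold. Of 52 genes with a ratio, 10 were higher (19.2%) and 6 lower (11.5%), against 12.9% and 5.62% of the 12634 genes analysed; after scaling to the hybridisation spikes the counts were 13 and 2, against 19.8% and 3.04% of all genes. Cbr3, Gpx3 and Gpx8 entered only through their day 3 signal. Among the 49 measured on both sides, 7 (14.3%) were higher and 6 (12.2%) lower, against 11.7% and 5.76% of 10722 genes. The median log2 ratio of the 52 genes was -0.17, beside 0.08 for all genes. After quantile normalisation these medians were -0.03 and 0.00, and after loess -0.04 and 0.05, so most of this gap depends on the scaling.

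**Figure D1:**
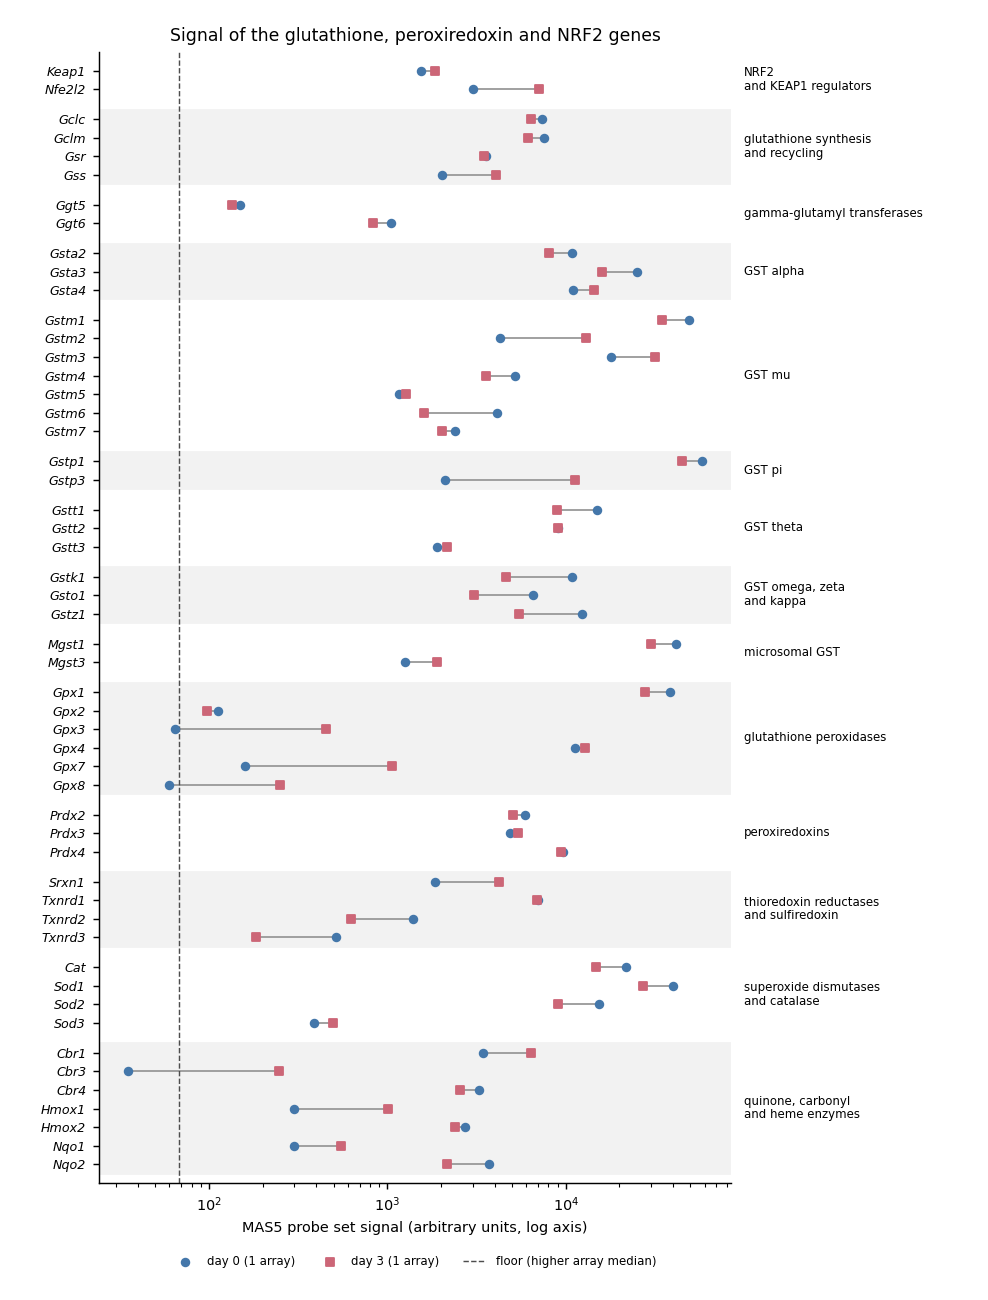
MAS5 signal of the main probe set (log axis, arbitrary units) of the 52 genes above the floor on at least 1 array, at day 0 (circles) and day 3 (squares), 1 array each, grouped by enzyme family. Gpx3, Gpx7, Gstp3 and Cbr3 span the widest distances with day 3 on the right, Txnrd3, Gstm6 and Gstk1 with day 3 on the left; positions of different genes are not comparable.

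The arrays differed in ways that touch these values. Poly-A spikes are bacterial transcripts mixed into the RNA ahead of labelling. Their 3′ to 5′ signal ratio was higher on the day 3 array in 8 of 8 pairs (median 2.13 times). The log2 ratio of day 3 over day 0 had a median of -1.20 at their 5′ ends and -0.12 at their 3′ ends. Spike scaling, which uses control RNAs that enter after the labelling step, shifted the median over all genes from 0.08 to 0.37 on the log2 scale and the median over the 52 genes from -0.17 to 0.13. Under median centring, quantile, loess and spike scaling, 40 of the 52 genes kept their sign and 12 did not. The 10 higher genes passed 2-fold under each of these 4 scalings, and of the 6 lower genes 2 (Gstm6 and Txnrd3) did. The only error that could be measured was the disagreement between probe sets of 1 gene: taken from the brightest pair, its SD per probe set was 0.435 (log2) over the 20 genes here that had a pair, and 0.435 over 4380 genes of the array. The tissue label was checked with hepatocyte markers: the 10 analysed had summed signals of 409450 and 307477, and 0 of them passed 2-fold. Such sums over genes weigh the brightest probe sets most, and the median log2 ratio of these 10 was -0.36. The Y-linked Eif2s3y had signals of 1386 and 1127, and Xist, which is transcribed in female cells, at most 62.2 and 79.6, so both samples carried Y-linked transcripts.

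Among the regulators, Nfe2l2 had a signal of 3006 at day 0 and 7081 at day 3 on its main probe set, 2.36-fold higher at day 3. Its other probe set went the other way, from 299 to 197, a log2 ratio of -0.60. The mean over both was 0.32, so the difference rests on 1 probe set. Keap1, the adapter that hands NRF2 to a ubiquitin ligase, had 1538 and 1850 on its main probe set, a log2 ratio of 0.27, and 203 and 155 on the other. Neither gene thus had probe sets that ran one way.

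Of the enzymes that make glutathione, only the last step differed by 2-fold. Gss, glutathione synthetase, which adds glycine, had signals of 2021 and 4083, 2.02-fold higher at day 3, and its other probe set went from 962 to 2626, a log2 ratio of 1.45. Gclc and Gclm, the catalytic and modifier subunits of glutamate-cysteine ligase, the rate-limiting enzyme, are textbook NRF2 targets. Gclc had 7371 at day 0 and 6388 at day 3, and Gclm 7563 and 6157, log2 ratios of -0.21 and -0.30. Both ratios, from the main probe sets, were smaller than the SD between probe sets, and the spike scaling put them at 0.09 and 0.00. The other probe set of Gclc had -0.25. That of Gclm had -0.47, which is larger than this SD of 0.435. Gsr, glutathione reductase, which regenerates glutathione with NADPH, had 3575 and 3498 on its main probe set and 3167 and 2224 on the other.

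The gamma-glutamyl transferases cleave glutathione outside the cell. Ggt6 had signals of 1049 and 826 and a log2 ratio of -0.35. Ggt5 had 149 and 135, while another of its probe sets went from 59.2, under the floor, to 106. Ggt7 was under the floor on both arrays.

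The GST classes did not move as a block, and in the mu class genes that neighbour each other differed in direction. In the RefSeq order along chromosome 3, the mu genes stand as Gstm5, Gstm7, Gstm6, Gstm3, Gstm2, Gstm1 and Gstm4. Gstm2 had signals of 4296 at day 0 and 12991 at day 3, 3.02-fold higher. Gstm3, beside it, had 17992 and 31757 on its main probe set (1.77-fold higher) and 4608 and 15347 on its other one, a log2 ratio of 1.74. The main probe set of Gstm3 is of a type that the array maker marks as matching several transcripts; without such probe sets Gstm3 would pass 2-fold. Gstm6, on the other side of Gstm3, was 2.58-fold lower, with 4136 and 1602 on its only probe set. That probe set was also among those dropped in this way, so Gstm6 had no value without them. Gstm1 had 48944 and 34852, and its 4 probe sets had log2 ratios from -0.66 to -0.28. After quantile normalisation the ratio of Gstm1 was -0.14. Gstm4 (5161 and 3566), Gstm7 (2385 and 2034) and Gstm5 (1156 and 1269) were under 2-fold, and Gstm7 changed sign under the spike scaling. Mu class genes are close in sequence, so how far their probe sets report one gene only was not tested.

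Gstp3 had the highest ratio of the GST genes, 5.34-fold, with signals of 2117 at day 0 and 11309 at day 3. Gstp1, which lies in the same cluster on chromosome 19, had 58344 and 44790, a log2 ratio of -0.38, or 0.06 after quantile normalisation. Each gene was read by 1 probe set. Gstp3 was past 2-fold under each alternative run, and Gstp1 stayed under 2-fold wherever it had a value.

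The omega, zeta and kappa classes are described together here, but each had only 1 gene with a ratio. These 3 genes were at least 2-fold lower at day 3 (5.62% of all genes were), and 0 of them were after spike scaling. With 1 gene per class, this count does not describe any class as a whole. Gstk1, a transferase of mitochondria and peroxisomes, had 10863 and 4619 (2.35-fold lower). Gstz1, the maleylacetoacetate isomerase of tyrosine breakdown, had 12324 and 5438 (2.27-fold lower). Gsto1, which can reduce dehydroascorbate, had 6533 and 3076 (2.12-fold lower), but 1764 and 1507 on its other probe set, a log2 ratio of -0.23. After spike scaling the log2 ratios were -0.93, -0.88 and -0.79. In the alpha class, Gsta3 had 24960 and 15990, Gsta2 10835 and 8104, and Gsta4, which conjugates the lipid aldehyde 4-hydroxynonenal, 10996 and 14399. All 3 were under 2-fold, with log2 ratios of -0.64, -0.42 and 0.39 that kept their sign under the 4 scalings. Among the theta genes, Gstt1 had 15024 and 8945 (-0.75), Gstt2 9002 and 9006, and Gstt3 1888 and 2168. The membrane-bound Mgst1 had 41615 and 29884 (-0.48) and Mgst3 1253 and 1903 (0.60). After quantile normalisation these ratios were -0.10 and 0.57.

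**Figure D2:**
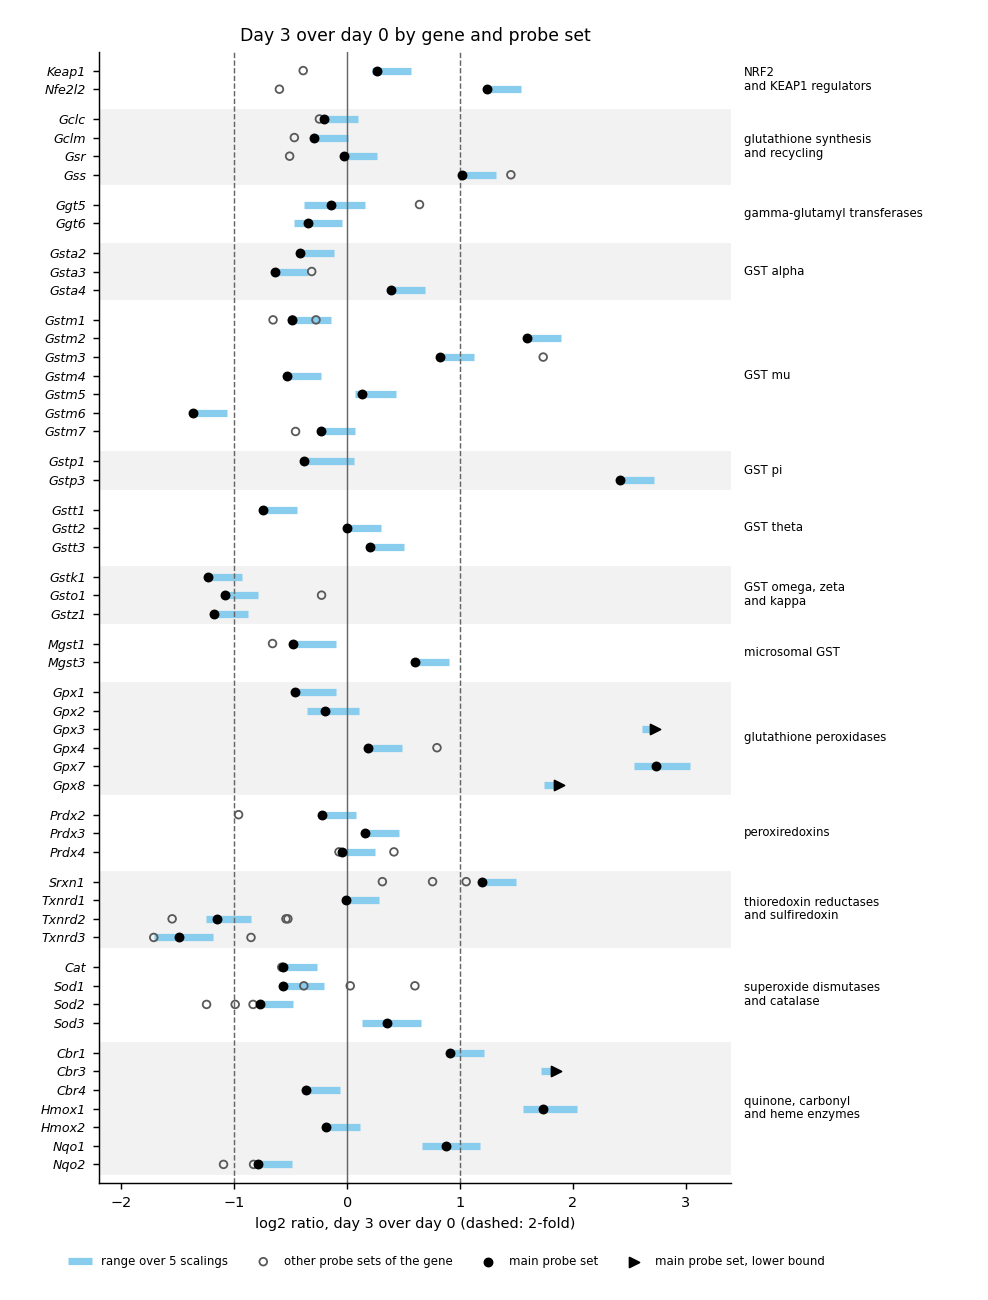
Log2 ratio of day 3 over day 0 for each gene: filled points are main probe sets, triangles lower bounds, open circles other probe sets, and blue bars the range over the signals as deposited and 4 other scalings; dashed lines mark 2-fold. Nfe2l2 has probe sets at 1.24 and -0.60, and the bars of Gstk1, Gsto1, Gstz1 and Txnrd2 cross the lower dashed line.

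The glutathione peroxidases differed among themselves, with Gpx3, Gpx7 and Gpx8 past 2-fold and Gpx1, Gpx2 and Gpx4 under it. Gpx7, a peroxidase of the endoplasmic reticulum, had signals of 159 at day 0 and 1057 at day 3, 6.65-fold higher. Gpx8, its membrane-bound relative in the same compartment, went from 60.0, under the floor, to 251, at least 3.68-fold higher. Gpx3, the secreted peroxidase of plasma, went from 64.2, also under the floor, to 451, at least 6.60-fold higher. A floor set at the 75th percentile gave Gpx3 a log2 ratio of 0.09 and Gpx7 one of 1.32, so the size for Gpx3 depends on low signals. The cytosolic selenoenzyme Gpx1 had 38366 and 27884, a log2 ratio of -0.46, or -0.10 after quantile normalisation. Gpx4, which removes lipid hydroperoxides from membranes, had 11211 and 12758 on its main probe set (0.19) and 7656 and 13282 on the other (0.79). Gpx2, best known from the gut, had 112 and 98.0.

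Markers of some non-hepatocyte cells were also higher at day 3 and those of others were not, and whole liver RNA cannot tell more cells of a type from more RNA per cell. Of 12 stellate cell markers, 6 were at least 2-fold higher and 0 lower, against 12.9% and 5.62% of all genes. The 12 markers had summed signals of 20496 and 41254 and a median log2 ratio of 1.13. Des and Col1a1 were under the floor at day 0. Of 12 Kupffer cell and macrophage markers, 9 were higher and 0 lower, with sums of 10572 and 28277. Their median log2 ratio was 1.20, and all 12 were above the floor on both arrays. Of 10 cholangiocyte markers analysed, 6 were higher and 0 lower, but 5 of these 6 (Krt7, Epcam, Tspan8, Prom1 and Muc1) were under the floor at day 0 and entered only through day 3. Of 12 sinusoidal endothelial markers, 0 were higher and 0 lower, with sums of 14339 and 11018 and a median log2 ratio of -0.14. Lymphocyte markers had 0 of 4 higher and 0 lower. Neutrophil markers had 2 of 5 higher and 0 lower, and erythroid markers 1 of 5 higher and 2 lower. Cycling cell markers, a list for a state rather than a cell type, had 11 of 12 higher and 0 lower. Their median log2 ratio was 5.05, with Ccna2 and Ccnb2 under the floor at day 0. The part of these cells in the values of Gpx3, Gpx7, Gpx8, Hmox1 or any other gene here was not tested.

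The peroxiredoxin genes analysed, Prdx2, Prdx3 and Prdx4, were under 2-fold. Prdx2, a cytosolic form, had signals of 5929 and 5077, with a weak second probe set going from 133 to 54.1. Prdx3, the mitochondrial form, had 4855 and 5411, and Prdx4, the form of the endoplasmic reticulum, 9692 and 9367. Other probe sets of Prdx4 had 1003 and 1336 (0.41), and 378 and 359 (-0.07), so its probe sets ran both ways. The main probe sets of Prdx2, Prdx3 and Prdx4 had log2 ratios of -0.22, 0.16 and -0.05, smaller than the SD between probe sets. Srxn1, sulfiredoxin, which restores overoxidised peroxiredoxins, was 2.29-fold higher, with 1855 at day 0 and 4245 at day 3. All 4 of its probe sets were higher at day 3, with log2 ratios of 1.19, 1.05, 0.76 and 0.31.

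The thioredoxin reductases split by form. Txnrd1, the cytosolic enzyme, had 7013 and 6943, a log2 ratio of -0.01. Txnrd2, the mitochondrial enzyme, had 1384 and 624, 2.22-fold lower at day 3, and its 4 probe sets ranged from -1.55 to -0.53. After spike scaling its log2 ratio was -0.85, short of 2-fold. Txnrd3, which is best known from testis, had 513 and 182, 2.81-fold lower, with its 3 probe sets from -1.71 to -0.85. Both were lower on every probe set above the floor. The poly-A spikes had median log2 ratios of -1.20 at the 5′ end and -0.12 at the 3′ end. Where the probe sets of these genes lie along their transcripts was not tested.

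Superoxide dismutases turn superoxide into hydrogen peroxide, which catalase then breaks down, and none of these genes passed 2-fold. Sod2, the mitochondrial manganese enzyme, had 15415 and 9004 (-0.78), and its 3 probe sets above the floor on both arrays ran from -0.99 to -0.78. Sod1, the cytosolic copper-zinc enzyme, had 40032 and 27027 (-0.57), and its second bright probe set 31648 and 24250 (-0.38). A dimmer one had 390 and 398. Cat had 21812 and 14685 (-0.57), and its other probe set gave -0.58. The extracellular Sod3 had 388 and 496 (0.36). Sod1, Sod2 and Cat kept a negative sign under the 4 scalings, with log2 ratios of -0.21 to -0.58, -0.48 to -0.79 and -0.27 to -0.58.

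Among the quinone, carbonyl and heme enzymes, 2 of 7 were at least 2-fold higher and 0 lower, against 12.9% and 5.62% of all genes, and 1 of these 2, Cbr3, entered only through its day 3 signal. Hmox1, the inducible heme oxygenase, had signals of 301 and 1002, 3.33-fold higher, whereas the constitutive Hmox2 had 2709 and 2381. Cbr3, a carbonyl reductase, went from 34.9, under the floor, to 245, at least 3.59-fold higher. Its relative Cbr1 had 3416 and 6409 (1.88-fold higher) and Nqo1, the quinone reductase often read as an NRF2 marker, 301 and 553 (1.84-fold higher), both just short of 2-fold, as was Gstm3, while Gss at 2.02-fold was just past it. After spike scaling the log2 ratios of Cbr1, Nqo1 and Gstm3 were 1.21, 1.18 and 1.12, but 19.8% of all genes were then at least 2-fold higher. Quantile normalisation gave these 3 genes 0.999, 0.66 and 1.12, and loess 1.01, 0.71 and 1.11. Nqo2 was lower, from 3718 to 2153 (-0.79), and its 3 probe sets ran from -1.10 to -0.79. Cbr4, a mitochondrial reductase, had 3279 and 2546.

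**Figure D3:**
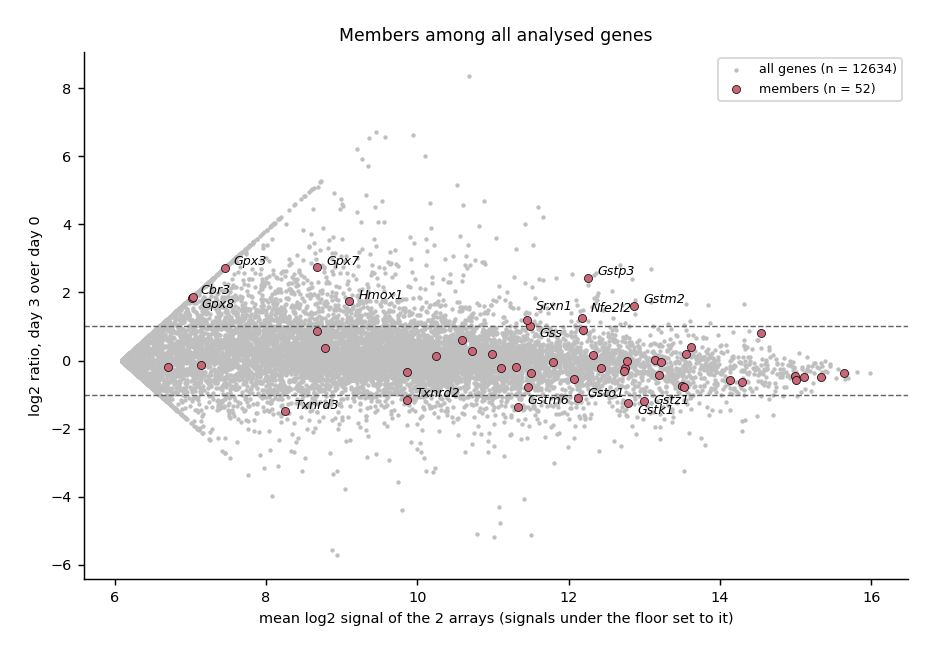
Log2 ratio of day 3 over day 0 against the mean log2 signal for 12634 genes (grey) and the 52 genes described here (red), with those past 2-fold (dashed lines) named. Gpx3, Gpx8 and Cbr3 lie on the upper edge, where day 0 was under the floor, and Gstp3 and Gstm2 among genes with far higher signal.

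Other genes of the pathway were read from lists of partners, 121 genes in all without the ones above, of which 101 had a ratio. Of these 12 (11.9%) were at least 2-fold higher and 13 (12.9%) lower, against 12.9% and 5.62% of all genes. Glutathione supply and breakdown had 1 of 12 higher and 4 lower. Ggct, which degrades gamma-glutamyl peptides, went from 335 to 969 (2.89-fold higher), and Chac1, which cleaves glutathione itself, from 644 to 129 (5.00-fold lower). Csad and Cdo1, which turn cysteine toward taurine, were also at least 2-fold lower, with signals of 10156 and 1270, and of 36959 and 10785 (3.43-fold), as was the peptidase Lap3 (2.38-fold). Slc7a11, the cystine importer and an NRF2 target, was under the floor on both arrays. Thioredoxins, glutaredoxins and repair enzymes had 1 of 21 higher (Msrb3, a methionine sulfoxide reductase, 2.30-fold) and 2 lower. The latter were Txnip, the inhibitor of thioredoxin (4016 and 627, 6.40-fold lower), and Sepsecs, which makes selenocysteine on its transfer RNA (2.01-fold lower). Txn1 and Txn2, the thioredoxins of cytosol and mitochondria, had 19811 and 17068, and 3804 and 3081.

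NADPH supply had 0 of 9 genes higher and 1 lower, the malic enzyme gene Me1 (8464 and 2219, 3.81-fold lower), also an NRF2 target; G6pdx had no probe set with 1 symbol. The list of other genes linked to NRF2 had 3 of 25 higher and 3 lower. Ptgr1, a reductase of prostaglandins and lipid aldehydes, went from 467 to 3703 (7.92-fold higher), the aldo-keto reductase Akr1b8 from 142 to 395 (2.78-fold) and the exporter Abcc1 from 94.5 to 221 (2.34-fold). The exporter Abcc3 was 2.79-fold lower, Trib3 2.59-fold lower and Lpin1 8.94-fold lower. Of 14 regulators, Bach1, a repressor that competes for the same elements, was 2.27-fold lower (3334 and 1468) and Brca1, also a DNA repair gene, 13.2-fold higher, while Nfe2l1 had 1910 and 1870. The list of other defence genes had 6 of 21 higher and 2 lower, where the shares over all genes were 12.9% and 5.62%. The metallothionein genes Mt1 and Mt2 were 22.7-fold and 25.7-fold higher and Gstcd 2.43-fold. Cyba, Cybb and Ncf1, parts of the phagocyte oxidase, were 4.95-fold, 2.41-fold and 2.25-fold higher, beside the macrophage markers given above. Nox4, another NADPH oxidase, was 3.66-fold lower and Sesn1, a sestrin, 2.01-fold lower.

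Other families of liver detoxification on the same arrays are given as a description, since no difference between families could be tested. Over all genes, 12.9% were at least 2-fold higher and 5.62% lower, with a median log2 ratio of 0.08. Of 31 cytochrome P450 family 2 genes with a ratio, 2 were at least 2-fold higher and 10 (32.3%) lower, with a median log2 ratio of -0.88. Of 30 glucuronosyltransferase, sulfotransferase and carboxylesterase genes, 1 was higher and 13 (43.3%) lower, with a median of -0.81. Of 29 aldehyde, alcohol and retinol dehydrogenase genes, 1 was higher and 4 (13.8%) lower, with a median of -0.23, close to the -0.17 found here. After spike scaling these medians were -0.59, -0.55 and 0.07, beside 0.13 for the 52 genes.

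**Figure D4:**
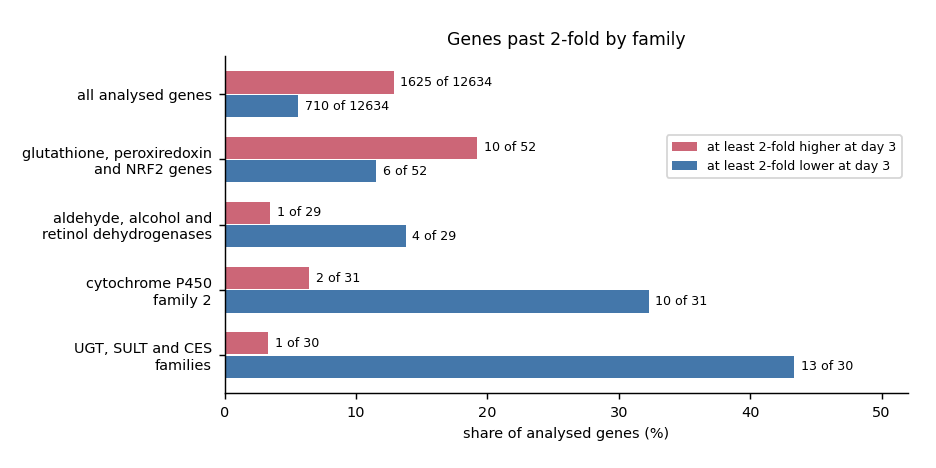
Share of analysed genes (percent) at least 2-fold higher (red) and at least 2-fold lower (blue) at day 3, with counts, for all genes, the genes described here and 3 other detoxification families. The glutathione, peroxiredoxin and NRF2 genes had 10 higher and 6 lower of 52. The 3 other families had 1 or 2 higher and 4 to 13 lower, of 29, 30 or 31 genes. The shares over all genes were 12.9% and 5.62%.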

How the data were processed

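Total RNA was extracted from whole liver and 5 µg made into biotinylated cRNA for an Affymetrix array, per the labels' protocols. Each deposited value is a linear intensity of 1 probe set, which the authors made with GCOS and MAS5, per the submitters' processing notes. Not given in the sources used here were their versions, the scaling target and a genome build. A trimmed mean (2% off each end) was 500.0 on both arrays, as a scaling to 1 target gives. MAS5 subtracts mismatch probes, so low signals are noisy.

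Both arrays were used as deposited. Probe sets were named from the supplied array annotation: 34945 had 1 symbol, 932 several and 9160 no entry, beside 64 controls. Entrez IDs of 34741 matched RefSeq, which changed 0 symbols. Floor, main probe set and the 2-fold threshold are as given above. No test, p-value or interval was computed, and the number of arrays limits the precision.

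Alternatives were 4 scalings (loess fraction 0.3), 2 other floors, restriction to genes over the floor on each array, 16 added without a floor, averaging over probe sets, dropping those whose ID ends in _s_at, _x_at or _a_at, and thresholds of 1.5-fold and 4-fold. Every gene of the rule was accounted for; of partner genes, those past 2-fold, and Txn1, Txn2, Slc7a11, G6pdx, Nfe2l1 and Bach1 whatever their values. The genes and lists were chosen with earlier results of these data known. The steps were tested on simulated data. Python 3.11.15, pandas 2.3.3, statsmodels 0.14.6 and matplotlib 3.10.9 were used.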

Additional observations from a re-analysis of the deposited data

How the results depend on the processing

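The count of 10 higher genes was 7 to 13 and that of 6 lower genes 2 to 6 over the alternatives at 2-fold. The lower count was 2 after spike scaling, outside 1.5 times the count as given. At 1.5-fold, 14 genes were higher (26.9%) and 10 lower (19.2%), against 23.97% and 14.2% of all genes, and at 4-fold 3 (5.77%) and 0, against 3.27% and 0.760%. The median log2 ratio ran from -0.20 (floor at the 75th percentile) to 0.13 (spike scaling), so its sign depends on the scaling. No gene past 2-fold changed sign under any alternative that gave it a value. The 2-fold calls of Nfe2l2 (0.32) and Srxn1 (0.83) were lost with the mean over probe sets, as were those of Gsto1 (-0.66) and Txnrd2. With the floor at the 75th percentile, those of Gpx3 (0.09) and Txnrd3 (-0.27) were lost, since their signals lie near it. Low signals on 1 array per day limit what can be said of Gpx3, Gpx8 and Cbr3.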
